A study of Mus musculus with 6 samples.

Results

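The vascular endothelium genes described here are 10 genes that mark the cells lining blood vessels: Kdr, Flt1, Tek, Tie1, Cdh5, Cldn5, Esam, Pecam1, Emcn and Robo4. They were chosen by name, as every probe set (a group of short probes for 1 transcript) whose gene symbol on the platform is one of the 10, which gave 14 of the 45101 probe sets and 10 of 18193 genes. Whole gonads came from C57BL/6 mice, an inbred strain, bought from a breeder: ovary and testis at 15.5 days postcoitum (fetal), on neonatal day 1 and at 10 weeks of age (adult). All 6 groups share the strain, no group carries an engineered allele or received a treatment according to the labels, and each group is 1 Affymetrix array. The labels do not give the number of animals behind an array, so no value could be checked against replicates and p-values were not computed. Precision is limited by the number of arrays. The arrays hold RNA from every cell of the gonad, and fewer endothelial cells and less RNA per endothelial cell cannot be told apart.

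Signals are given on the linear intensity scale after each array was multiplied by 1 factor to a common trimmed mean. Signals under a floor of 75.3, the median of all signals, were raised to it and have no order, so a ratio against a floored array is only a lower limit and is given as at least that many fold. A ratio of 4 or more was called, and 2 or more is given beside it. The technical SD of a log2 ratio, taken from pairs of probe sets for the same gene, was 0.16 between the fetal arrays, 0.22 to 0.32 between other pairs of arrays that leave out adult testis, and 0.57 to 0.63 between adult testis and another array. Differences are set against 2 of these SDs. They cover neither variation between animals nor error shared by all probe sets of an array, such as its scaling. The 7 comparisons share arrays, so their values are given side by side and are not independent.

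Marker genes followed the labels. Zp3, a protein of the egg coat, had signals of 1509 and 2126 in neonatal and adult ovary, and the 3 testis arrays were at the floor. Each of 10 spermatid genes had a signal of 2157 or more in adult testis, and the brightest probe sets of 9 of them were at the floor elsewhere. The ratio of 3' to 5' signal of Gapdh, a measure of RNA integrity, lay between 1.32 and 1.45 on 4 arrays but reached 3.12 in neonatal ovary and 2.36 in adult testis. For Actb the ratio was lowest in adult testis (1.81), and neonatal ovary (3.28) lay within the 2.91 to 3.78 of the other 4 arrays. Hybridization controls are RNAs spiked in at known amounts, and the geometric mean of 9 of them after scaling was lowest in adult testis (680.4), then in neonatal ovary (1299), with 1383 to 1761 elsewhere. All 10 endothelial genes lay above the floor on the 5 arrays other than adult testis, and 5 of them did in adult testis.

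Blood vessels grow when vascular endothelial growth factor (VEGF) activates receptors on endothelial cells. The vessels then mature through angiopoietins, which act on the receptor Tek, and through junction proteins that hold neighbouring endothelial cells together. In the fetal testis, endothelial cells migrate in from the mesonephros while the testis cords form. The adult ovary builds new vessels in each cycle, above all in the corpus luteum, and in the adult testis vessels run between the seminiferous tubules and do not enter them.

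Promoters of 7 of the 10 genes (Cldn5, Emcn, Flt1, Kdr, Robo4, Tek and Tie1) were matched in RefSeq sequence of assembly GRCm38.p6, each from 250 bases before to 50 bases after the annotated start. Cdh5, Esam and Pecam1 were not matched. Because factors of the ETS and GATA families act in endothelial cells, 3 words were searched on both strands. The first word, CAGGAAG, and the second word, which is CCGGAAG, contain the ETS core, and the third word, AGATAA, is a GATA word. The 3 promoters that hold one of them are shown, with the word in capitals, and all 3 genes lie on the plus strand. The Emcn promoter lies at chr3:137340828-137341127 and holds CAGGAAG on the opposite strand, the Robo4 promoter lies at chr9:37401722-37402021 and holds CAGGAAG on the printed strand, and the Tek promoter lies at chr4:94739039-94739338 and holds AGATAA on the printed strand.
Emcn: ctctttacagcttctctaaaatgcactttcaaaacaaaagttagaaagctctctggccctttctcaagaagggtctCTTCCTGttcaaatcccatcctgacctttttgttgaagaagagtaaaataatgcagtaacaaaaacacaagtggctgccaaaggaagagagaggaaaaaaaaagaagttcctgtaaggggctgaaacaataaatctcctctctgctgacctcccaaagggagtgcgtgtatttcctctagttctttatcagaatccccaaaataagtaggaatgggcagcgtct
Robo4: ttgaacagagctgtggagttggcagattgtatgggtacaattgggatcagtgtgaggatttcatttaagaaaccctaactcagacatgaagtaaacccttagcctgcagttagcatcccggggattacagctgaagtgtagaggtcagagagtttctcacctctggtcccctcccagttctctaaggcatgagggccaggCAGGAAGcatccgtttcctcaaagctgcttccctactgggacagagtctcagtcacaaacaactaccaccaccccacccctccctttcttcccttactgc
Tek: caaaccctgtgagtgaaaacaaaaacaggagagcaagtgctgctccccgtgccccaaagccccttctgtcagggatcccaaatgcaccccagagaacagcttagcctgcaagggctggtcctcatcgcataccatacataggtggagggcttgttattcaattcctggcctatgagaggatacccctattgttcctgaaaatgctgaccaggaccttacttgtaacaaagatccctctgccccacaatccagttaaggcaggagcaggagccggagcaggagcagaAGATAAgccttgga
Of the 7 promoters, 2 held CAGGAAG, 0 held CCGGAAG and 1 held AGATAA. Of all 32851 promoters of this length in the table, 13.3%, 8.86% and 11.2% held these words. A match is a run of letters and no evidence of a bound factor.

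The VEGF receptors differed in their course. Kdr, the receptor that carries most of the VEGF signal, had signals of 1165 in fetal ovary, 952 in fetal testis, 846 in neonatal ovary, 612 in adult ovary, 552 in neonatal testis and 145 in adult testis. Kdr was therefore highest in the fetal gonads and lower at each later age in both sexes, and adjacent arrays in this order differed by less than 2 technical SDs except at the last step, to adult testis. Flt1, a VEGF receptor that binds the ligand tightly and can act as a decoy, had 202 in adult ovary, 153 in fetal testis, 150.0 in fetal ovary, 114 in neonatal testis and 106 in neonatal ovary, with adult testis at the floor. Among the arrays above the floor, no adjacent ones in the order of Flt1 differed by more than 2 technical SDs. The step to adult testis is only a lower limit and could not be judged. Between neonatal and adult ovary the receptors moved apart, with Flt1 1.91-fold higher in the adult (log2 0.94 against 0.64 for 2 SDs) and Kdr 1.38-fold lower (log2 -0.47, within 2 SDs). A further Flt1 probe set had 125, 118 and 83.8 in fetal ovary, fetal testis and adult ovary and lay under the floor on the other 3 arrays, and the remaining 2 Flt1 probe sets lay under it on all 6.

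The angiopoietin receptor Tek was level among the ovaries. Tek had 399 in neonatal ovary, 381 in adult ovary, 370.0 in fetal ovary, 362 in fetal testis and 258 in neonatal testis, with adult testis at the floor. The first 4 arrays lay in steps within 2 SDs, and the steps to neonatal testis and to adult testis were larger than 2 technical SDs. Tie1, a receptor that pairs with Tek, had 291 in fetal ovary, 213 in fetal testis, 193 in adult ovary, 155 in neonatal ovary and 103 in neonatal testis, with adult testis at the floor. Tie1 thus had its highest signals in the fetal gonads, with ovary above testis by more than 2 SDs, and it was 1.88-fold lower in neonatal than in fetal ovary and 2.07-fold lower in neonatal than in fetal testis, both beyond 2 SDs. Tek was 1.08-fold higher and 1.41-fold lower in the same comparisons, the second of them beyond 2 SDs.

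**Figure D1:**
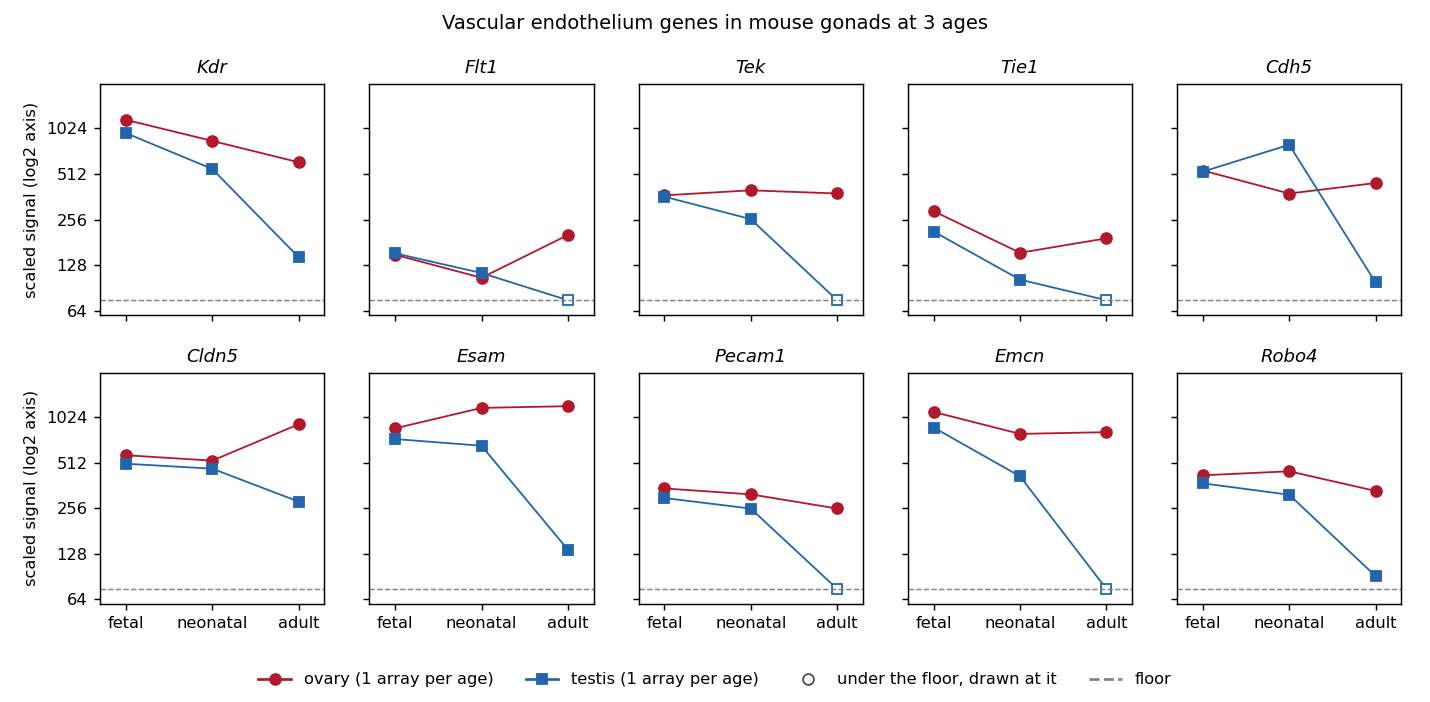
Scaled signal (log2 axis) of the 10 vascular endothelium genes by age, with red circles for ovary and blue squares for testis, 1 array per point; open symbols lie under the floor of 75.3 (dashed) and are drawn at it. The adult testis point is the lowest for every gene, and Cdh5 alone is highest in neonatal testis, with a signal of 798.

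Among the junction genes, Cdh5 had its highest signal in neonatal testis. Cdh5 encodes VE-cadherin, which holds endothelial cells together at adherens junctions, and had 798 in neonatal testis, 539 in fetal ovary, 531 in fetal testis, 446 in adult ovary, 380.4 in neonatal ovary and 98.5 in adult testis. Neonatal testis exceeded the next array by 0.56 on the log2 scale (2 SDs were 0.47), the 4 arrays that follow lay in steps within 2 SDs, and adult testis stood below them. A further Cdh5 probe set lay under the floor on all 6 arrays, so the course rests on 1 probe set. Cldn5, a claudin of endothelial tight junctions that is also found in the seminiferous epithelium, had 916 in adult ovary, 572 in fetal ovary, 527 in neonatal ovary, 503 in fetal testis, 467 in neonatal testis and 283 in adult testis. Adult ovary was above all other arrays by more than 2 SDs for Cldn5, and the other 5 lay in steps within 2 SDs, adult testis included. Esam, an adhesion molecule of endothelial junctions, had 1205 in adult ovary, 1174 in neonatal ovary, 861 in fetal ovary, 732 in fetal testis, 661 in neonatal testis and 137 in adult testis. The 3 ovaries were above the 3 testes for Esam, and only the step to adult testis was larger than 2 SDs.

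Of the remaining surface genes, Pecam1 (CD31), an adhesion molecule that endothelial cells share with platelets, leukocytes and fetal germ cells, had 346 in fetal ovary, 316 in neonatal ovary, 299 in fetal testis, 255 in adult ovary and 255 in neonatal testis, with adult testis at the floor. The 5 measured values lay in steps within 2 SDs, and adult testis stood below them. Of 10 fetal germ cell and pluripotency genes, 6 were 4-fold or more lower in fetal ovary than in fetal testis, against 0.635% of all genes. Among the others, Dazl had 1916 in fetal ovary and 1222 in fetal testis, and Ddx4 had 1172 and 1610. The part of germ cells in the Pecam1 signal was not tested. Emcn, a sialomucin of capillary and venous endothelium, had 1104.5 in fetal ovary, 872 in fetal testis, 812 in adult ovary, 791 in neonatal ovary and 416 in neonatal testis, with adult testis at the floor. Fetal ovary and fetal testis differed by slightly more than 2 SDs for Emcn (log2 0.34 against 0.32), and the steps to neonatal testis and to adult testis were larger than 2 SDs. Robo4, a receptor that stabilises vessels, had 448 in neonatal ovary, 422 in fetal ovary, 373 in fetal testis, 333 in adult ovary, 314 in neonatal testis and 91.3 in adult testis, and only the last step was larger than 2 SDs.

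Fetal ovary and fetal testis were close in all 10 genes. Ratios of ovary over testis ran from 1.02-fold lower for Flt1 to 1.36-fold higher for Tie1, with a median log2 ratio of 0.20 against 0.02 over all genes tested. Of the 10 genes 9 were above 1, as were 53.4% of all genes. No gene reached a ratio of 2, which 1.68% of all genes did for higher and 2.59% for lower signal in ovary, or of 4, which 0.278% and 0.635% did. Emcn (1.27-fold) and Tie1 were higher by more than 2 technical SDs, 2 of 10 against 14.5% of all genes, a share near the background. Markers of other cells differed between the same arrays: 6 of 10 germ cell and pluripotency genes and 5 of 7 steroidogenic genes were 4-fold or more lower in ovary, and their part in the endothelial values was not tested.

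In the neonatal gonads, 8 of the 10 genes were higher in ovary, as were 56.3% of all genes, and Cdh5 was the largest difference, in the other direction. The median log2 ratio was 0.55 (0.07 over all genes), and Emcn (1.90-fold), Esam (1.78-fold), Tek (1.55-fold), Kdr (1.53-fold) and Tie1 (1.50-fold) were higher by more than 2 technical SDs, 5 of 10 against 18.5% of all genes. Cdh5 was 2.10-fold lower in ovary, the 1 gene of 10 past a ratio of 2, against 5.27% of all genes in that direction and 12.3% beyond 2 SDs, and Flt1 was 1.07-fold lower, within 2 SDs. No gene reached a ratio of 4, which 1.94% of genes did for higher and 1.33% for lower signal in ovary. In these arrays the leukocyte list had a median of 1.00 with 0 of 12 genes past 4-fold and a summed signal of 9335 in ovary and 4125 in testis. The Sertoli list had 5 of 8 genes 4-fold or more lower in ovary, and the part of these cells was not tested. Scaling to the hybridization controls gave a median of 0.98 for the 10 genes and 0.46 for all genes, and left Cdh5 lower in ovary (log2 -0.63).

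In the adult gonads, all 10 genes were higher in ovary by more than 2-fold and by more than 2 technical SDs. Of all genes, 58.8% were higher in ovary and 28.4% were so by more than 2 SDs. Emcn was at least 10.8-fold, Esam 8.82-fold, Tek at least 5.05-fold, Cdh5 4.53-fold and Kdr 4.23-fold higher, 5 of 10 genes past a ratio of 4 against 15.1% of all genes. A ratio of 2 was passed by 10 of 10 against 34.2% of all genes. The other ratios were 3.64-fold for Robo4, at least 3.38-fold for Pecam1, 3.23-fold for Cldn5, at least 2.69-fold for Flt1 and at least 2.56-fold for Tie1. The median log2 ratio was 1.97 against 0.35 over all genes. The number past 4 was 2 with arrays scaled to the hybridization controls, 8 with a floor at the 25th percentile and 0 with one at the 75th. With the control scaling the median was 1.27 for the 10 genes and -0.57 for all genes, so both moved down. With a floor at the 75th percentile the medians were 0.27 for the 10 genes and 0.27 for all genes. Markers of other cells were also higher in adult ovary by 4-fold or more, with 7 of 12 leukocyte genes (1 lower, median 2.46), 6 of 7 steroidogenic genes (median 3.61) and 7 of 10 granulosa and oocyte genes (median 2.92), and their part in the endothelial values was not tested.

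**Figure D2:**
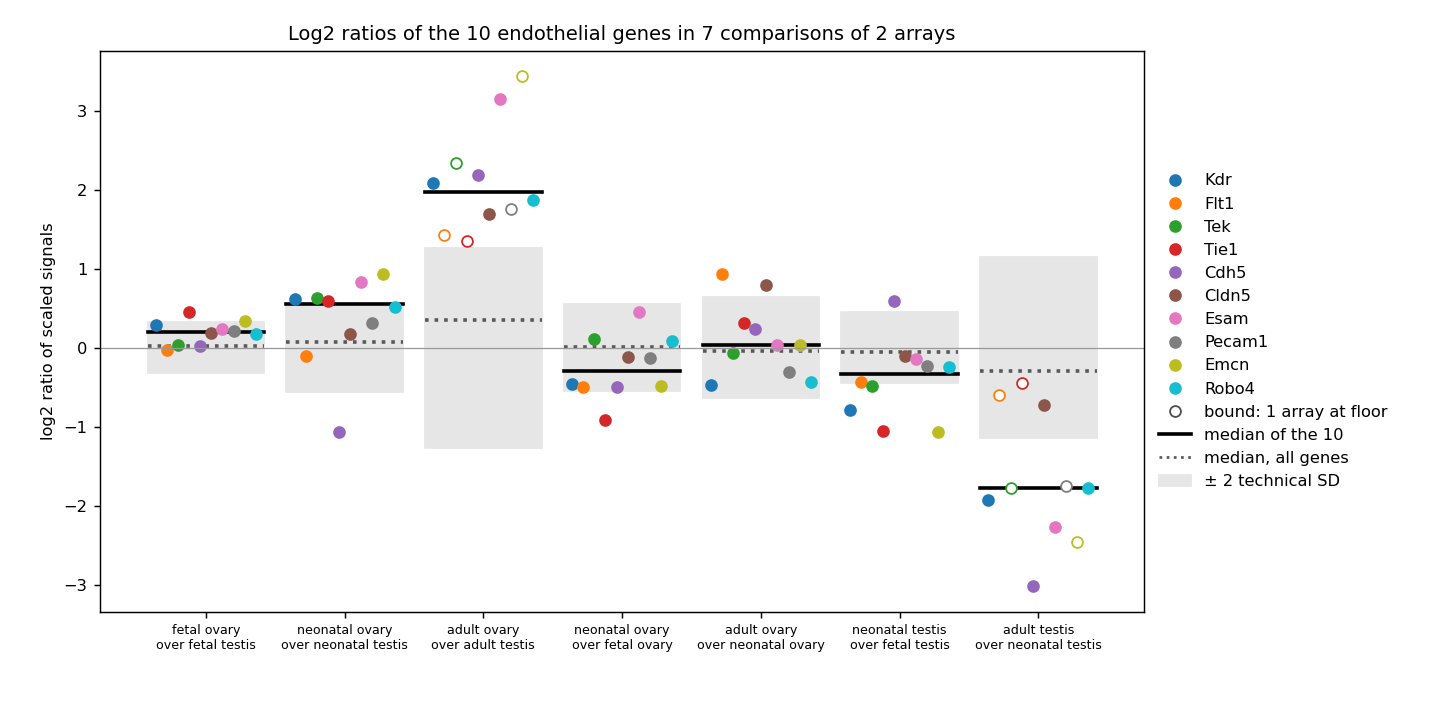
Log2 ratio of scaled signals (vertical axis) of each vascular endothelium gene in 7 comparisons of 2 arrays; open circles are bounds against an array at the floor, black bars the median of the 10 genes, dotted bars the median of all genes tested, and grey boxes 2 technical SDs around 0. All 10 circles lie above the box for adult ovary over adult testis (median 1.97), and Cdh5 lies below the box for neonatal ovary over neonatal testis and above it for neonatal over fetal testis.

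Between fetal and neonatal testis, 9 of the 10 genes were lower in the neonate, as were 55.4% of all genes, and Cdh5 was 1.50-fold higher. Emcn (2.10-fold) and Tie1 (2.07-fold) were past a ratio of 2, 2 of 10 against 4.92% of all genes, and 0 of 10 were past 4, against 0.513% of all genes for higher and 0.631% for lower signal. Emcn, Tie1, Kdr (1.72-fold) and Tek (1.41-fold) were lower by more than 2 technical SDs, 4 of 10 against 20.1% of all genes, and Cdh5 was higher by more than 2 SDs, 1 of 10 against 12.7%. The median log2 ratio was -0.34 (-0.06 over all genes). Embryonic globin genes differed between the same arrays. Hbb-y had 5496 in fetal testis, with neonatal testis at the floor, and the part of blood in the endothelial values was not tested.

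From fetal to neonatal ovary the 10 genes were mixed, and only Tie1 was beyond 2 technical SDs. Tie1 was 1.88-fold lower, 1 of 10 against 13.5% of all genes, and Esam stood at the other end at 1.36-fold higher, within 2 SDs. The median log2 ratio was -0.30 (0.00 over all genes), and 0 of 10 genes passed a ratio of 2 or 4, which 3.44% and 0.321% of genes did for lower and 5.01% and 1.05% for higher signal. Signals as deposited gave a median of -0.76 for the 10 genes and -0.45 for all genes.

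Between neonatal and adult ovary the 10 genes as a group were level, with a median log2 ratio of 0.04 (-0.04 over all genes). Flt1 (1.91-fold) and Cldn5 (1.74-fold) were higher in the adult by more than 2 technical SDs, 2 of 10 against 15.1% of all genes, a share near the background. No gene passed a ratio of 2 or 4, which 8.05% and 2.04% of genes did for higher signal and 9.42% and 2.59% for lower. Steroidogenic and corpus luteum genes differed strongly between the same arrays, with all 7 measured genes of that list higher in the adult by 4-fold or more and a summed signal of 2603 in neonatal and 39158 in adult ovary. Kdr (1.38-fold), Robo4 (1.35-fold) and Pecam1 (1.24-fold) were lower in the adult, within 2 SDs.

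From neonatal to adult testis all 10 genes were lower, as were 58.1% of all genes. Cdh5 was 8.10-fold lower, Emcn at least 5.52-fold and Esam 4.84-fold, 3 of 10 past a ratio of 4 against 13.2% of all genes. Kdr, Robo4, Tek and Pecam1 were 3.82-fold, 3.44-fold, at least 3.43-fold and at least 3.38-fold lower, which made 7 of 10 past a ratio of 2 against 32.5%, and the same 7 past 2 technical SDs against 29.4%. Cldn5 was 1.65-fold lower, and Flt1 and Tie1, which were dim in neonatal testis, were at least 1.51-fold and 1.37-fold lower, so a larger decline of these could not be measured. The median log2 ratio was -1.78 against -0.30 over all genes. With arrays scaled to the hybridization controls it was -0.51 against 0.86 over all genes, no gene was past 4, Cldn5 turned to 0.65 and Tie1 was at the floor on both arrays; a floor at the 25th percentile gave 6 genes past 4 and one at the 75th gave 0, with a median of -0.14 against -0.24 over all genes. The adult testis array also held all the spermatid signal (summed signal of 10 genes 79910.5, against 274 in neonatal testis), whose part in the lower endothelial share was not tested.

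Because an array's scale factor cancels within the array, each gene was also set against the mean of the 10 on the same array, over the 5 arrays without adult testis, on which no gene was at the floor. The largest departure was Cdh5 in neonatal testis, 0.97 above the mean course on the log2 scale, against -0.44 in neonatal ovary. This difference of 1.41 compares with 0.56 for 2 technical SDs of a single log2 ratio between these arrays. Cldn5 and Flt1 stood 0.57 and 0.43 above the mean in adult ovary, where Kdr stood 0.47 below it. Emcn and Tie1 shared a course, 0.30 and 0.46 above the mean in fetal ovary and 0.52 and 0.45 below it in neonatal testis. Esam stood 0.34 below in fetal testis and 0.40 above in neonatal ovary. Tek and Pecam1 had the smallest ranges over the 5 arrays, 0.36 and 0.45.

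**Figure D3:**
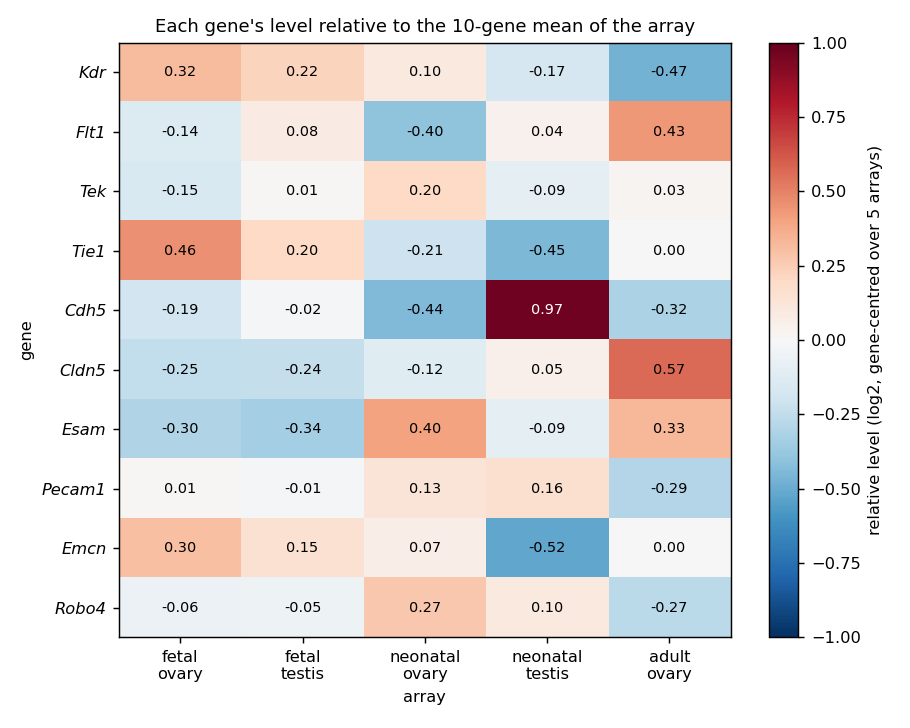
Level of each vascular endothelium gene (rows) on each of 5 arrays (columns), as log2 signal centred per gene and set against the mean of the 10 genes on that array; red is above and blue below the mean. Cdh5 in neonatal testis (0.97) is the strongest departure, and Cldn5 in adult ovary (0.57) the next.

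The ligands and co-receptors of the VEGF pathway had 8 measured genes. Between the adult gonads 6 of 8 were higher in ovary by 4-fold or more (median log2 ratio 2.68), and in adult over neonatal testis 4 of 8 were 4-fold or more lower (median -1.64). Of all genes, 15.1% and 13.2% were called in these directions. Of 8 genes, 0 passed 4-fold in the other 5 comparisons, whose medians lay between -0.55 and 0.36. Nrp1, a co-receptor of Kdr, had 1382 in fetal ovary, 1032 in fetal testis, 1213 in neonatal ovary, 1007 in neonatal testis, 1114 in adult ovary and 132 in adult testis. Nrp2, the neuropilin of veins and lymphatics, had 567 in neonatal ovary and 191 in neonatal testis, and 970.1 in adult ovary and 98.7 in adult testis. Vegfd, a ligand, was higher in testis before adulthood, with 1210 against 734 in the fetal and 986 against 712 in the neonatal gonads. The neonatal difference lay within 2 technical SDs. A further 2 Vegfd probe sets had the same direction at both ages. Vegfb was at least 6.69-fold higher in adult ovary, with adult testis at the floor.

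In the angiopoietin list of 6 measured genes, 2 were higher in ovary between the adult gonads and 2 lower in adult than in neonatal testis, each by 4-fold or more, with medians of 1.44 and -1.54, against 15.1% and 13.2% of all genes. None passed 4-fold in the other 5 comparisons (medians -0.03 to 0.42). Angpt2, which loosens the contact of endothelial and mural cells by opposing Angpt1 at Tek, had 95.3 in fetal ovary, 137 in fetal testis, 128 in neonatal ovary, 219 in neonatal testis and 418 in adult ovary, with adult testis at the floor. Angpt2 was thus 3.27-fold higher in adult than in neonatal ovary, where Tek itself was level. Svep1, a matrix protein that binds Tie1, had 508 and 537 in fetal ovary and testis and reached the floor in both adult gonads. Angptl4, a related secreted protein that does not act through Tek, had 2734 in adult ovary and 169 in adult testis, a 16.2-fold difference. It rests on 1 probe set, since a further Angptl4 probe set lay under the floor in both adult gonads. That probe set had 89.8 in neonatal ovary and 140.6 in neonatal testis.

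For the Slit and Robo4 partners, 6 genes were measured, with Slit1 floored on every array. In each comparison with a gene past 4-fold, 4 of the 6 were above the floor on at least 1 of the 2 arrays. By 4-fold or more 2 were higher in ovary between the adult gonads (median 1.63), against 15.1% of all genes. In adult testis 3 were lower than in neonatal testis (median -2.03), against 13.2%, and in adult ovary 1 was lower than in neonatal ovary (median -0.89), against 2.59%. The other 4 comparisons had 0 past 4-fold, with medians between -0.46 and 0.41. Slit2, a ligand of Robo receptors, had 2566 in fetal ovary, 2080.1 in fetal testis, 2023 in neonatal ovary, 909 in neonatal testis, 187 in adult ovary and 83.1 in adult testis. Slit2 was 10.8-fold lower in adult than in neonatal ovary, while Robo4 was 1.35-fold lower. Unc5b, a receptor that binds Robo4, had 319.8 in adult ovary, with adult testis at the floor.

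A list of 26 other genes of endothelium was measured beside the 10, of which Esm1 was at the floor on all 6 arrays. Between the adult gonads 11 of 26 were higher in ovary by 4-fold or more, 0 lower, with a median of 1.88, and in adult over neonatal testis 9 of 26 were lower, 0 higher (median -1.70). The shares of all genes were 15.1% for higher signal in adult ovary and 13.2% for lower signal in adult testis. Medians of the remaining comparisons were 0.17 for the fetal and 0.34 for the neonatal ovary over testis, 0.10 and -0.11 for the steps in ovary and -0.31 for neonatal over fetal testis. Aplnr, the apelin receptor, had 2277 in adult ovary, at least 30.2-fold above adult testis. Cd93, an adhesion receptor, was at least 12.8-fold and Ramp2, part of the adrenomedullin receptor, 8.58-fold higher in adult ovary. Some genes of the list went against its median. Thbd, thrombomodulin, had 270.2 in fetal ovary, 1371 in fetal testis, 483 in neonatal ovary, 2516 in neonatal testis, 596 in adult ovary and 147 in adult testis. Vwf, von Willebrand factor, had 113 in fetal ovary and 547 in fetal testis, 257 and 203 in the neonatal pair, and 149 and 202 in the adult pair. Arhgef15, named after its values were seen, was also higher in adult testis, with 202 against 145 in adult ovary. Its further probe sets lay under the floor in both adult gonads, so the direction of Arhgef15 rests on 1 probe set. Neither Vwf nor Arhgef15 was past a ratio of 2 between the adult gonads. Thbd and Vwf were the 2 genes of the list past 4-fold between the fetal gonads, and Thbd the 1 gene past it between the neonatal gonads, all lower in ovary. Of all genes, 0.635% and 1.33% were lower in ovary by as much. By its brighter probe set Eng, a co-receptor of endothelium named after its values were seen, also went against the neonatal median, with 437 in ovary and 662 in testis. A further Eng probe set ran the other way, with 552 in ovary and 444 in testis, so the direction of Eng is uncertain. Acvrl1 and Mcam, also named after their values were seen, were lower in neonatal ovary, 271 against 480 and 689 against 1064. A further Acvrl1 probe set had 204 and 356. Of the 26 genes, 5 were higher in neonatal ovary by 2-fold or more and 1 was lower, against 8.04% and 5.27% of all genes.

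Transcription factors of endothelium had 14 measured genes. By 4-fold or more 5 were higher in ovary between the adult gonads (median 1.20) and 4 lower in adult than in neonatal testis (median -1.01). The shares of all genes were 15.1% and 13.2%. Elk3 and Ets1, factors of the ETS family, were at least 10.8-fold and 10.5-fold higher in adult ovary, with adult testis floored. Sox18, a factor of vessel and lymphatic formation, had 99.7 in neonatal ovary, 328 in neonatal testis and 468 in adult ovary. Mef2c, a factor of muscle and endothelium, was also lower in neonatal ovary than in neonatal testis, 428 against 987. Sox18 and Mef2c were the 2 genes of 14 lower in neonatal ovary by 2-fold or more, against 5.27% of all genes. In the other direction 3 of the 14 were higher by as much, against 8.04%. Gata2, which acts in endothelium and blood and also in other cells of the fetal gonad, had 1786 in fetal ovary, 1509 in fetal testis, 1713 in neonatal ovary, 323 in neonatal testis, 296 in adult ovary and 276 in adult testis. A further Gata2 probe set differed in the adult, with 369 in testis and 58.4, under the floor, in ovary. By the brighter probe set Gata2 was the 1 gene of 14 past 4-fold between the neonatal gonads, higher in ovary (median 0.63), against 1.94% of all genes. It was also the 1 past it from fetal to neonatal testis, lower in the neonate (median -0.54), against 0.631%. From neonatal to adult ovary Gata2 was lower and Sox18 higher by 4-fold or more (median -0.26), against 2.59% and 2.04% of all genes. Between the fetal gonads (median 0.34) and from fetal to neonatal ovary (median -0.40) 0 of 14 passed 4-fold.

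Notch and arterial genes (11 measured, of which Cxcr4 and Gja5 were at the floor on all 6 arrays) had 2 genes higher in ovary between the adult gonads by 4-fold or more (median 1.56) and 1 lower in adult than in neonatal testis (median -1.47). Of the 11 genes, 8 and 7 were above the floor on at least 1 of the 2 arrays of these comparisons. The shares of all genes, which count only such genes, were 15.1% and 13.2%. The gene in both counts was Jag1, a Notch ligand, with 749.9 in adult ovary, 553 in neonatal testis and 94.4 in adult testis. A further Jag1 probe set ran the other way, with 462 in adult testis and values under the floor on the other 5 arrays, so the direction of Jag1 is uncertain. Gja4, a connexin of arterial endothelium, was at least 6.63-fold higher in adult ovary. The venous and lymphatic list (5 measured) had 2 genes higher and 2 lower in the same comparisons, with medians of 1.97 and -1.73. They were Nr2f2, a factor of venous identity that stromal cells of the gonad also express, and Pdpn, podoplanin, which is not confined to lymphatic vessels. In the other 5 comparisons 0 genes of both lists passed 4-fold. Notch4 and Prox1, named after their values were seen, ran the other way. Notch4 had 419 in adult testis, 231 in adult ovary and 208 in neonatal testis. Prox1 exceeded the floor in adult testis alone, with 184. Each was the 1 gene of its list 2-fold or more higher in adult than in neonatal testis, against 22.6% of all genes. By as much, 5 Notch and arterial genes and 4 venous and lymphatic genes were lower.

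Genes listed for mural cells, the cells that wrap the endothelium, also differed between the adult gonads. The arrays hold RNA from every cell of the gonad, and the part of other cells in these values was not tested. Of 11 pericyte and vascular smooth muscle genes 10 were higher in ovary between the adult gonads by 4-fold or more (median 2.79) and 8 were lower in adult than in neonatal testis (median -2.36). The shares of all genes were 15.1% and 13.2%. Pdgfrb, the receptor that recruits pericytes, had 3429 in fetal ovary, 2864 in fetal testis, 2395 in neonatal ovary, 1456 in neonatal testis and 1789.5 in adult ovary, with adult testis at the floor. Unlike the 10 endothelial genes, the contractile genes Tagln and Myh11 had signals of 549 and 118 in fetal ovary and 2611 and 620.0 in neonatal ovary. Tagln and Myh11 were the 2 genes of 11 past 4-fold in that comparison, against 1.05% of all genes for higher signal. These lists were not tested against the endothelial genes.

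**Figure D4:**
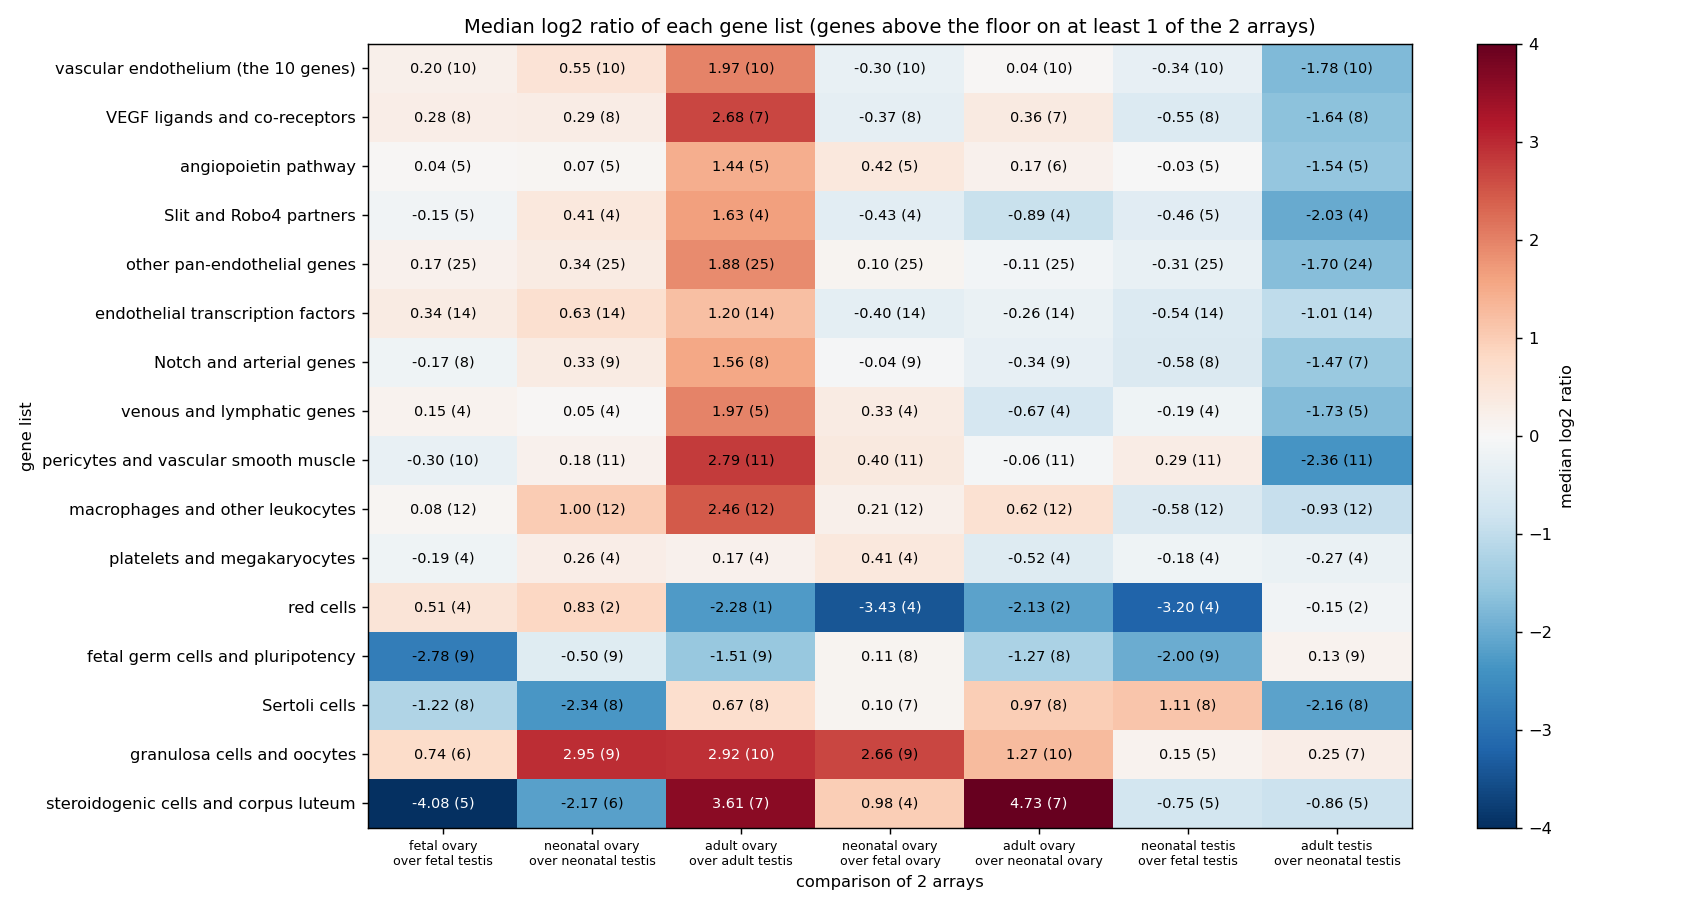
Median log2 ratio of each gene list (rows) in 7 comparisons of 2 arrays (columns), with the number of genes above the floor on at least 1 of the 2 arrays in parentheses and spermatid genes not drawn; red is higher and blue lower on the first array. The 10 vascular endothelium genes (top row) have medians of 1.97 for adult ovary over adult testis and -1.78 for adult over neonatal testis, and between -0.34 and 0.55 elsewhere.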

How the data were processed

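Arrays of 6 mouse gonad samples were read from 1 deposited table with 1 intensity for each of 45101 probe sets and array. The submitters' processing notes list GCOS 1 but not what it was used for. How the authors corrected background, summarised probes and scaled the intensity values is not given here. Each array was scaled to the same 2% trimmed mean (factors 0.913 to 1.26). The floor of 75.3 is the median over all scaled values, and log2 ratios were taken of floored values. Platform annotation gave 34945 probe sets with 1 symbol, 932 with several and 9211 with none, and symbols were updated through the gene identifier. Of several probe sets for a gene, the brightest on average stood for it. Background shares and list medians refer to genes above the floor on at least 1 of 2 arrays. List counts are out of all measured genes unless stated. The members and 16 further lists (164 genes, 157 measured) were chosen with earlier results of these data known. Named genes are the 10 members, in each other list the 3 with the largest ratio past 4-fold in a comparison, the brightest of each list, and those most like the members in course. Genes marked as named after their values were seen stand outside these rules. Steps were tested on simulated arrays. Python 3.11.15, pandas 2.3.3 and numpy 2.4.6 were used. Alternatives were other scalings, floors at the 25th and 75th percentile, 16 added without a floor, other choices of probe sets, and a ratio of 2.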

Additional observations from a re-analysis of the deposited data

Results flagged for a closer look

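Cdh5 was marked because its difference between ovary and testis had opposite directions at 2 ages, both beyond 2 technical SDs. Its log2 ratio of ovary over testis was -1.07 in the neonatal and 2.18 in the adult gonads. The difference between the ages was not tested, since each group is 1 array. Over the alternatives the neonatal value lay between -1.29 and -0.53 and the adult value between 0.38 and 2.18. No group holds 4 or more arrays, so no array was examined as an outlier within its group.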

How the results depend on the processing

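No paired analysis was possible because each group has 1 array, so no replicate numbers repeat within a comparison; a sex effect averaged over the ages, with age as a block, was not fitted. Of 203 recomputed counts and medians, 182 stayed within 1.5 times the reported count or within 1 technical SD of the reported median, 0 medians that lay beyond 2 technical SDs changed sign, and the others are as follows. With signals as deposited the median log2 ratio of the 10 genes was -0.76 for neonatal over fetal ovary and 0.45 for adult over neonatal ovary, where all genes had -0.45 and 0.36. Scaling to the hybridization controls gave medians of 0.98 (neonatal ovary over testis), 1.27 (adult ovary over testis) and -0.51 (adult over neonatal testis), with 2 genes 4-fold or more higher in adult ovary and 0 lower in adult testis. A floor at the 25th percentile gave 8 genes higher in adult ovary (median 2.75) and 6 lower in adult testis. A floor at the 75th percentile gave 0 and 0, with medians of 0.27 and -0.14 (all genes 0.27 and -0.24), and medians of 0.20 for neonatal ovary over testis, -0.0066 for neonatal over fetal ovary and -0.10 for neonatal over fetal testis. A ratio of 2 gave 10 genes higher in adult ovary and 7 lower in adult than in neonatal testis, 1 lower in neonatal ovary than testis and 2 lower in neonatal than fetal testis. Signal over the floor limits Flt1 and Tie1 most.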

Other observations

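Embryonic globin genes stood out on the fetal arrays. Hbb-y, an embryonic beta globin, had signals of 7328 and 5496 in fetal ovary and testis and Hba-x, an embryonic alpha globin, 1231 and 814, and both were at the floor on the other 4 arrays. Alas2, which starts haem synthesis in red cells, had 1604 and 1188 in the fetal gonads, 435 and 385 in the neonatal, and 366 in adult testis, with adult ovary at the floor. The red cell list had 3 of the 4 genes ever above the floor 4-fold or more lower in neonatal than in fetal gonads of each sex, while 0 of the 10 endothelial genes were. Of all genes, 0.321% in ovary and 0.631% in testis were lower by as much. Of 6 platelet genes, Ppbp and Gp9 were at the floor on all 6 arrays and 0 of the other 4 passed 4-fold in any comparison, and Pf4, a platelet chemokine that some macrophages also make, was the brightest, with 1936 in neonatal ovary and 698 in neonatal testis.

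The genes whose courses over the 6 arrays were most like the mean of the 10 endothelial genes were not on any of the lists. Among 8979 genes with 4 or more arrays above the floor and a span of 1 or more on the log2 scale, the 12 with the highest Pearson correlation were Alg2, Nek6, Lars2, Tmem98, 5031439G07Rik, Usp36, Klf3, Ethe1, Bcs1l, Gramd4, Med11 and Poglut1, with r of 0.997 or more. All 12 were lowest in adult testis, as were the 10 genes, so these correlations over 6 arrays share 1 low value. For single genes the most like were Hspa14 for Cdh5, Laptm5, a leukocyte gene, for Esam, and Sema3f for Kdr. The summed signal of the leukocyte list was 10483 in adult ovary and 8810 in adult testis, of which Aif1 alone gave 6132 in adult testis, although 7 of its 12 genes were 4-fold or more higher in adult ovary and only Aif1 was lower by as much. Of all genes, 15.1% were higher and 13.8% lower in adult ovary by 4-fold or more.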
